A study of Mus musculus with 4 samples.

Results

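The 33 protein-coding Hox genes measured here were taken from an array study of mouse aorta, and each is represented by probe sets that are paired with exactly 1 gene symbol. A gene qualified when its symbol was Hoxa, Hoxb, Hoxc or Hoxd followed by a number from 1 to 13. No measured value entered that choice. They had 48 probe sets among the 34945 with 1 symbol, and they are 33 of the 18193 genes that these name. RefSeq lists 39 such genes in the mouse, and the others had no probe set of exactly 1 symbol. Of those, Hoxb8 and Hoxd4 had probe sets shared with another Hox gene, which were left out of the 33. Probe sets of 1 symbol named 9 of 11 Hoxa genes, 9 of 10 Hoxb genes, 7 of 9 Hoxc genes and 8 of 9 Hoxd genes.

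The samples were aortas of mice aged 6 weeks whose smooth muscle cells lack Smad4 (Smad4-KO) and of littermates with the intact gene (WT). Smad4 is the partner that receptor-activated Smad proteins share in TGF-beta and BMP signalling. Each genotype had 2 Affymetrix arrays, and 400 ng of RNA was used per array, from 3 to 5 vessels pooled. The sources used here do not give the Cre line that drives the deletion, the sex of the animals or the segment of aorta.

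Hox genes encode homeodomain transcription factors that give cells their position along the body axis. They lie in 4 clusters, and within a cluster the genes of low number act towards the head and those of high number towards the tail. Smooth muscle of the aortic arch comes largely from neural crest and that of the descending aorta from somites, and the adult vessel keeps regional Hox expression from this origin. Sympathetic neurons, fibroblasts and fat cells also carry regional Hox codes.

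At an adjusted p of 0.05, limma called 861 of 13645 genes (6.31%), with 672 up and 189 down in Smad4-KO. The brightest Smad4 probe set read 4394 and 3819 in WT against 2676 and 3580 in Smad4-KO (log2 difference -0.40 ± 0.32, adjusted p = 0.626), which is no call. A dimmer one read 1213 and 1778 in WT against 658 and 942 in Smad4-KO, with the genotypes apart, and the remaining one overlapped, at 4306 and 3550 against 2018 and 4166. A probe set outside the removed part, which no label names, checks nothing. Smooth muscle markers identified the tissue on every array: their 10 signals summed to 148558 and 177373 in WT and to 65557 and 73391 in Smad4-KO. The arrays also divided in ways other than genotype. For Dap, a spike added before labelling, 3' signal exceeded 5' signal by a factor of 10.02 (WT replicate 1) and 14.1 (Smad4-KO replicate 2), but of 2.96 and 3.62 on the other arrays. WT replicate 1 and Smad4-KO replicate 2, and likewise the other arrays, are taken as a labelling pair from these ratios, since no label names a batch. Xist, which is transcribed from an inactive X, read 15192 (WT) and 6223 (Smad4-KO) for replicates 1, and 90.0 and 135 for replicates 2. Because each division puts an array of both genotypes on each side, values within pairs of arrays are given for the Hox clusters.

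No Hox gene passed the test between Smad4-KO and WT. Of the Hoxa and Hoxb genes tested, 12 of 13 had a negative difference (Smad4-KO minus WT), and of the Hoxc and Hoxd genes 8 of 9 had a positive one, with Hoxb9 and Hoxc10 as the exceptions. Over all 33 genes these counts were 15 of 18 and 11 of 15. Of all genes tested, 50.3% had a negative difference. The planned groupings were single clusters and ranges of paralog numbers. Joining clusters in this way follows the signs that it counts, and the genes share the same arrays. The joined counts are therefore a description and not repeated support. A gene was represented by its brightest probe set, and 22 of the 33 genes had a mean log2 signal of at least 5.64, the 25th percentile of all genes, and were tested. In limma 0 of the 22 passed an adjusted p of 0.05, where 6.31% of all genes did, and the lowest adjusted p was 0.0786 (Hoxa3). At an unadjusted p under 0.05 there were 3 of the 22 (Hoxa3, Hoxa10 and Hoxb5), where 19.3% of all genes tested lay under it. With every probe set tested by itself, 0 of 32 Hox probe sets passed and 2 had an unadjusted p under 0.05. Of all probe sets, 0.782% passed in that fit. The median log2 difference of the 22 genes was -0.41, against -0.01 for all genes tested.

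Signals of the 33 genes lay in all parts of the array's range. On all 4 arrays, 14 of them lay above the array median (111, 132, 133 and 137 for WT replicates 1 and 2 and Smad4-KO replicates 1 and 2) and 13 lay below it. In bulk RNA, fewer cells of a type and less RNA per cell cannot be told apart. Standard errors (after ±) come from limma with 2 arrays per genotype, and differences are on the log2 scale, Smad4-KO minus WT.

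**Figure D1:**
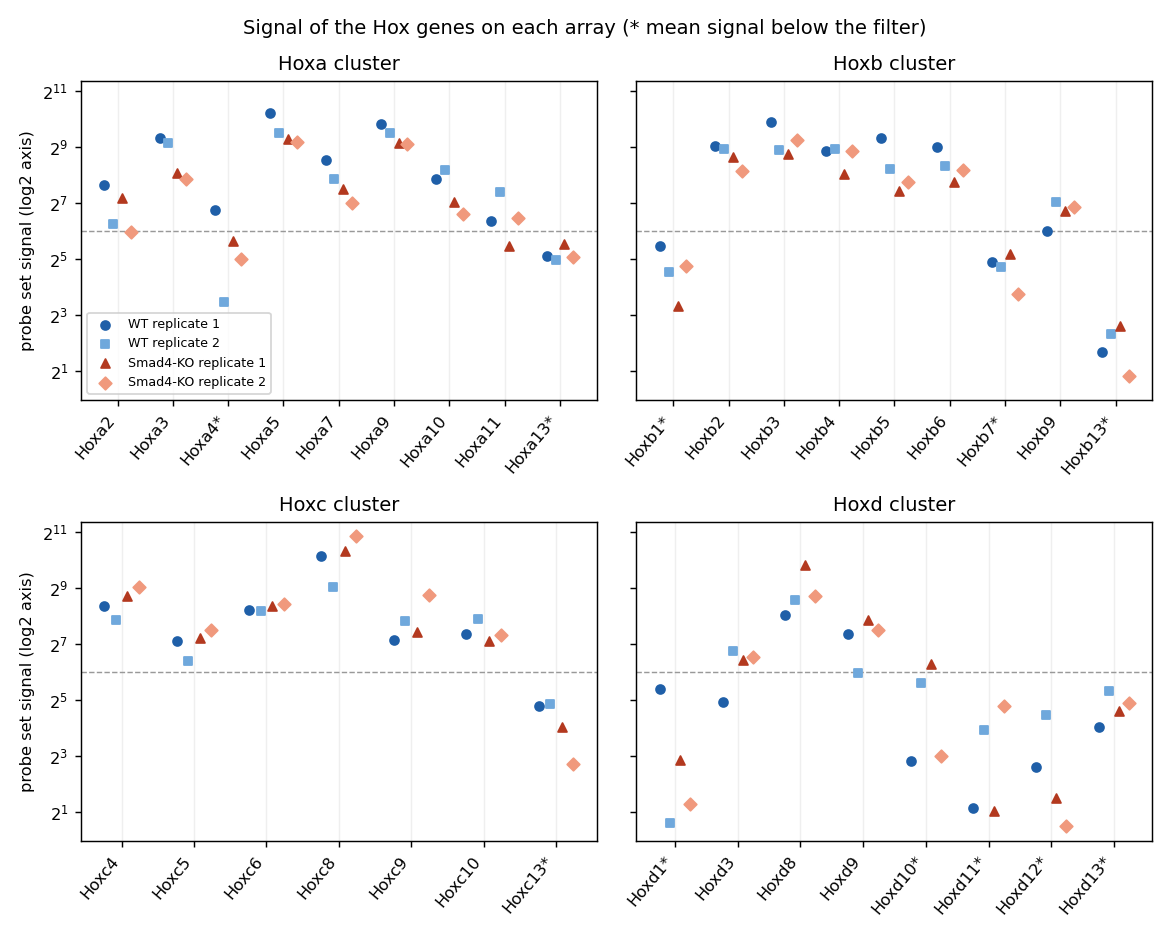
Probe set signal of the 33 Hox genes on a log2 axis, by cluster and paralog number, with 1 point for each array (blue circles and squares WT, red triangles and diamonds Smad4-KO); the dashed line is a signal of 64 and a star marks the 11 genes below the filter. Hoxa3, Hoxa5, Hoxa7, Hoxa9 and Hoxa10 have both Smad4-KO points below both WT points, and Hoxc4, Hoxc5, Hoxc6 and Hoxc8 have them above. Signals of different genes come from different probes and are not compared.

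All 7 Hoxa genes tested had negative differences, with a median of -0.91, and in 5 of them the Smad4-KO arrays were the 2 lowest. Over all genes tested, 21.4% had their arrays in that order. Hoxa3, which patterns the pharyngeal arches and the thymus, read 646 and 564 in WT against 270 and 232 in Smad4-KO. The groups did not overlap, and the difference was -1.27 ± 0.30 (95% interval -2.03 to -0.51, adjusted p = 0.0786). Hoxa10, a regulator of the uterus and of the lumbar skeleton, read 234 and 290 in WT against 132 and 98.6 in Smad4-KO. Its groups were also apart, with a difference of -1.19 ± 0.33 (adjusted p = 0.115). Hoxa7, a gene of thoracic identity, read 377 and 235 in WT against 183 and 130 in Smad4-KO. That is a difference of -0.95 ± 0.38 (adjusted p = 0.265) between groups that did not overlap.

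Hoxa5, known for its part in lung and neck development, read 1191 and 717 in WT against 620 and 581 in Smad4-KO. Both WT arrays were higher, yet WT replicate 1 stood further from WT replicate 2 than that array did from the Smad4-KO arrays, and the difference was -0.62 ± 0.36 (adjusted p = 0.468). Hoxa9, which acts in blood stem cells and in vessel endothelium, read 912 and 724 in WT against 561 and 557 in Smad4-KO (-0.54 ± 0.31, adjusted p = 0.449). Hoxa11, a gene of the limb and the kidney, read 82.8 and 168 in WT against 44.6 and 88.8 in Smad4-KO, and Hoxa2, a selector of the pharyngeal arches, read 202 and 77.0 against 144 and 62.4. The genotypes overlapped for both, at -0.91 ± 0.52 (Hoxa11, adjusted p = 0.454) and -0.40 ± 0.63 (Hoxa2, adjusted p = 0.84). The Hoxa11 difference ran from -1.41 without WT replicate 1 to -0.40 without WT replicate 2. For Hoxa2 it turned to 0.30 without WT replicate 1 and to 0.20 without Smad4-KO replicate 2.

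Of 6 Hoxb genes tested, 5 had negative differences, the cluster median was -0.51, and in 4 genes the Smad4-KO arrays were the 2 lowest. That order was found in 21.4% of all genes tested. Hoxb5, a regulator of gut neurons and airways, read 645 and 301 in WT against 174 and 215 in Smad4-KO. The groups did not overlap, but WT replicate 1 was far above the other WT array, and the difference was -1.19 ± 0.45 (95% interval -2.32 to -0.06, adjusted p = 0.234). Its neighbour Hoxb6 read 509 and 320 in WT against 218 and 288 in Smad4-KO (-0.69 ± 0.37, adjusted p = 0.425). Hoxb2, known from hindbrain segments, read 524 and 484 in WT against 406 and 284 in Smad4-KO (-0.57 ± 0.33, adjusted p = 0.462).

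Hoxb4, a gene of blood stem cells, read 460 and 488 in WT against 264 and 460 in Smad4-KO. Smad4-KO replicate 2 was almost level with the lower WT array, and the difference was -0.44 ± 0.38 (adjusted p = 0.658). Hoxb3 read 947 and 474 in WT against 428 and 608 in Smad4-KO, values that overlapped (-0.39 ± 0.44, adjusted p = 0.753), and its difference turned to 0.11 without WT replicate 1. Hoxb9, the gene of highest number tested in the cluster, read 64.8 and 131 in WT against 106 and 116 in Smad4-KO. It had the cluster's only positive difference (0.27 ± 0.42, adjusted p = 0.839), which turned to -0.24 without WT replicate 1.

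Hoxc genes ran the other way: 5 of 6 tested had positive differences, with a cluster median of 0.60. In 4 of them both Smad4-KO arrays lay above both WT arrays, an order that 25.9% of all genes tested had. Hoxc8, which patterns the lower neck and thorax and can bind Smad1, read 1115 and 527 in WT against 1274 and 1833 in Smad4-KO. WT replicate 1 was closer to the lower Smad4-KO array than to the other WT array, and the difference was 1.0 ± 0.46 (95% interval -0.17 to 2.16, adjusted p = 0.34). Hoxc4 read 322 and 230 in WT against 416 and 526 in Smad4-KO, 0.78 ± 0.34 between groups that were apart (adjusted p = 0.302). Its neighbour Hoxc5 read 137 and 84.7 in WT against 146 and 181 in Smad4-KO (0.59 ± 0.37, adjusted p = 0.501).

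Hoxc6, a gene of the brachial level of the spinal cord, had the smallest difference among the Hox genes tested. It read 296 and 291 in WT against 330 and 344 in Smad4-KO (0.20 ± 0.29, 95% interval -0.52 to 0.92, adjusted p = 0.824). Hoxc9, which sets thoracic motor neuron identity, read 140 and 223 in WT against 169 and 427 in Smad4-KO. The genotypes overlapped, and the difference of 0.61 ± 0.54 (adjusted p = 0.673) rested on Smad4-KO replicate 2, since it was -0.06 without that array. Hoxc10, a lumbar and hindlimb gene, was the exception of the cluster. It read 162 and 238 in WT against 137 and 158 in Smad4-KO (-0.42 ± 0.34, adjusted p = 0.631).

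In the Hoxd cluster 3 genes were tested and all had positive differences, with a median of 0.96. Hoxd9, a gene of the lumbar level and the limbs, read 164 and 62.2 in WT against 229 and 179 in Smad4-KO. The groups did not overlap, but the WT arrays were far apart, and the difference was 1.0 ± 0.52 (95% interval -0.31 to 2.31, adjusted p = 0.404). It was 1.70 without WT replicate 1 and 0.30 without WT replicate 2. Hoxd8 read 264 and 377 in WT against 891 and 421 in Smad4-KO (0.96 ± 0.46, adjusted p = 0.361), with Smad4-KO replicate 1 well above the rest. Hoxd3, which acts in the neck skeleton and in endothelium, read 30.5 and 106 in WT against 85.8 and 93.5 in Smad4-KO. The genotypes overlapped (0.65 ± 0.62, adjusted p = 0.698), and the difference turned to -0.24 without WT replicate 1.

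**Figure D2:**
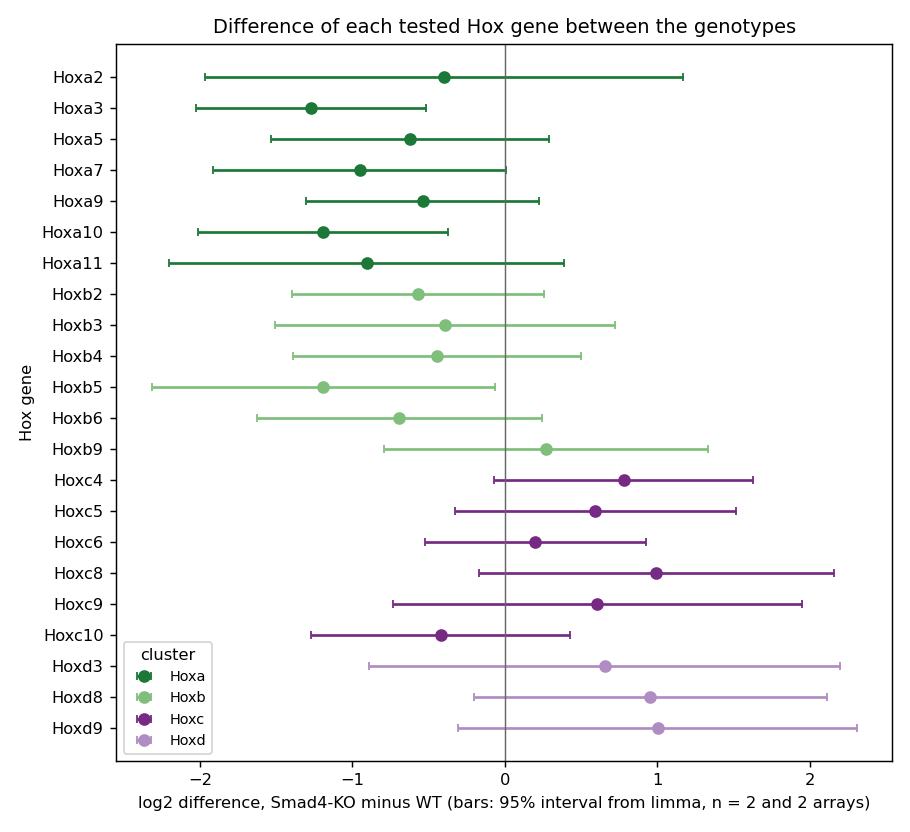
Log2 difference, Smad4-KO minus WT, of the 22 Hox genes tested, coloured by cluster, with the 95% interval from limma (2 and 2 arrays). All Hoxa points lie below 0 and all Hoxd points above it, and the intervals leave out 0 for Hoxa3, Hoxa10 and Hoxb5 alone.

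The promoters of 4 of these genes are shown because they are, in each cluster, the tested gene with the largest difference among those with a single start in the RefSeq promoter table. That table held 21 promoters of 19 of the 33 Hox genes. Each sequence runs from 250 bases before to 50 after the start of the gene, 5' to 3' on the gene's strand, and capitals mark CAGAC or its reverse GTCTG, the letters of a Smad-binding element.
Hoxa3 (GRCm38.p6, chr6:52213018-52213317, minus strand): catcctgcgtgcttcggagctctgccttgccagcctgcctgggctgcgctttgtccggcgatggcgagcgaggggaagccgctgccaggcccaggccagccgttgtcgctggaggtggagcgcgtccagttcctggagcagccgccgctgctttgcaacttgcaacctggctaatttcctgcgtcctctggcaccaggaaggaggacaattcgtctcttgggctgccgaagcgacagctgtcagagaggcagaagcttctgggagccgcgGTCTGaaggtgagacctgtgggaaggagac
Hoxb4 (GRCm38.p6, chr11:96318017-96318316, plus strand): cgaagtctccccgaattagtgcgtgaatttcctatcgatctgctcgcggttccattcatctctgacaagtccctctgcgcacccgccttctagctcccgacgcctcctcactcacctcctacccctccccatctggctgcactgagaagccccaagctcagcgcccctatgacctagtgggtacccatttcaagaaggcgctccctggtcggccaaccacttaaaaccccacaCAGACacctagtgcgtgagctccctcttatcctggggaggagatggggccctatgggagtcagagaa
Hoxc4 (GRCm38.p6, chr15:103034145-103034444, plus strand): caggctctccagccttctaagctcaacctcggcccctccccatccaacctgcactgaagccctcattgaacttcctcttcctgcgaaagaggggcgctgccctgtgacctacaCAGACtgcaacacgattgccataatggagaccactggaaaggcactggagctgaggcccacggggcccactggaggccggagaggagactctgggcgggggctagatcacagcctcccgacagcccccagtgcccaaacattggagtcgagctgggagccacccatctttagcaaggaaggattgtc
Hoxd9 (GRCm38.p6, chr2:74697513-74697812, plus strand): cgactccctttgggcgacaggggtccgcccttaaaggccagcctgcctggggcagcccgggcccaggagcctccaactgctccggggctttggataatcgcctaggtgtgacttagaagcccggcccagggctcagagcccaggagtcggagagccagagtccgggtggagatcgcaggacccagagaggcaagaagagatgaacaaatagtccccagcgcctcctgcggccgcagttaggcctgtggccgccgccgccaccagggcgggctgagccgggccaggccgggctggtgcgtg
The capitals occur in the Hoxa3, Hoxb4 and Hoxc4 windows, whose genes differed in direction, and these letters are not in the Hoxd9 window. They were in 38.1% of the Hox promoters and in 49.6% of all 32851 promoters of the same length. GGCGCC, a GC-rich Smad motif that is its own reverse, was in 23.8% of the Hox promoters and 11.9% of all, and in none of the 4 shown. AGGTCA or its reverse TGACCT, a core site of retinoic acid receptors, was in 28.6% of the Hox promoters and 16.3% of all, and occurs in those of Hoxb4 and Hoxc4. TGATNNAT on either strand, a Pbx and Hox site, was in 14.3% and 8.85%, and TATAAA on either strand in 9.52% and 13.6%. The GC content of the 4 windows was 64% for Hoxa3, 58.0% for Hoxb4, 60.3% for Hoxc4 and 68.3% for Hoxd9, and the median over Hox promoters was 58.0%, against 52.7% over all. A match of letters is a description, not evidence of binding.

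The opposite directions of the clusters were present in each pair of 1 WT and 1 Smad4-KO array. The median difference of the 7 Hoxa genes lay between -1.25 and -0.37 in the 4 pairs, and that of the 6 Hoxb genes between -0.97 and -0.17. For the 6 Hoxc genes it lay between 0.17 and 1.01, and for the 3 Hoxd genes between 0.16 and 1.49, while the median of all genes tested lay between -0.03 and 0.07. Pairs share arrays, so these values are not independent. With arrays centred on their medians, the all-gene median became -0.16. The cluster medians were then -1.06 (Hoxa), -0.66 (Hoxb), 0.45 (Hoxc) and 0.80 (Hoxd), with every sign kept. The difference between clusters was not tested.

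The WT replicates differed from each other by about as much as the genotypes did, and the Smad4-KO replicates by less. The median gap between the WT arrays was 0.68 on the log2 scale over the 22 genes and that between the Smad4-KO arrays 0.38, beside a median absolute difference between genotypes of 0.64. For 11 of the 22 genes the gap between the WT arrays exceeded the difference. A gap sets single arrays against each other and a difference sets means of 2 arrays, so the measures are not alike. Leaving out 1 array moved the difference by over 1.5 times for 17 of the 22, and for Hoxa3, Hoxa9, Hoxa10, Hoxc4 and Hoxc6 it did not. WT replicate 1 was the highest array for 9 of the 13 Hoxa and Hoxb genes and for 0 of the 9 Hoxc and Hoxd genes. Smad4-KO replicate 2 was the lowest array for 6 of 7 Hoxa genes and the highest for 5 of 6 Hoxc genes. The Hoxc median depended on single arrays: it was 0.35 without WT replicate 2 and 0.31 without Smad4-KO replicate 2. The Hoxb median was -0.31 without Smad4-KO replicate 1, and the Hoxa median -0.61 without WT replicate 1.

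**Figure D3:**
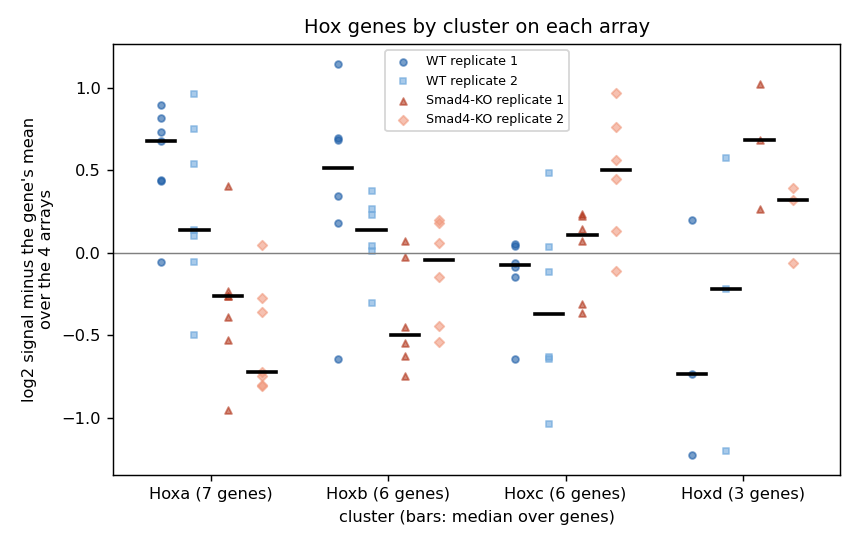
Log2 signal of each tested Hox gene minus its mean over the 4 arrays, by cluster and array; points are genes and black bars medians. In the Hoxa cluster the medians run from 0.68 on WT replicate 1 and 0.14 on WT replicate 2 to -0.26 and -0.72 on the Smad4-KO arrays, and in the Hoxc cluster from -0.08 and -0.37 in WT to 0.11 and 0.50 in Smad4-KO.

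Genes of the same number in different clusters, which descend from a common ancestor gene, differed in sign. Among paralogs of number 5, Hoxa5 (-0.62) and Hoxb5 (-1.19) were negative and Hoxc5 (0.59) was positive. Among those of number 9, Hoxa9 was negative (-0.54), while Hoxb9 (0.27), Hoxc9 (0.61) and Hoxd9 (1.0) were positive. Among genes tested, number 8 held only Hoxc8 and Hoxd8, both positive, and number 10 only Hoxa10 and Hoxc10, both negative. By position along the clusters there was no such division: the median was -0.40 for the 5 genes tested of numbers 1 to 3, -0.12 for the 10 of numbers 4 to 8 and -0.42 for the 7 of numbers 9 to 13. Of the 10 genes of numbers 4 to 8, both Smad4-KO arrays lay above both WT arrays in 5 and below them in 5. Over all genes tested, 25.9% had the first order and 21.4% the second.

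The remaining 11 Hox genes had mean signals under the filter and were not tested. They were Hoxa4, Hoxa13, Hoxb1, Hoxb7, Hoxb13, Hoxc13, Hoxd1, Hoxd10, Hoxd11, Hoxd12 and Hoxd13, and 9 of them stayed below 64 on all 4 arrays. The exceptions were Hoxa4, with 108 and 11.2 in WT against 50.3 and 31.8 in Smad4-KO, and Hoxd10, with 7.07 and 48.5 in WT against 78.2 and 7.91 in Smad4-KO. Both showed wider gaps between replicates than between genotypes. Every gene of numbers 11 to 13 among the 33 except Hoxa11 is in this group. Hoxd12 (6.03 and 22 in WT, 2.80 and 1.40 in Smad4-KO) and Hoxc13 (27.4 and 28.9 in WT, 16.3 and 6.47 in Smad4-KO) had their arrays apart at these low signals. With all 33 genes counted, the medians were -0.62 (9 Hoxa), -0.44 (9 Hoxb), 0.59 (7 Hoxc) and 0.40 (8 Hoxd).

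A further probe set repeated the direction of the first for most genes that had one. Of 7 genes with several probe sets above the filter, 5 had them all in 1 direction. The other Hoxa5 probe set read 614 and 432 in WT against 268 and 278 in Smad4-KO (-0.91 ± 0.36), and the other Hoxa9 probe set -0.57 ± 0.40. The dimmer Hoxb3 probe set read 346 and 282 in WT against 209 and 180 in Smad4-KO, where the brightest overlapped. The dimmer Hoxb4 probe set read 137 and 151 in WT against 96.3 and 98.3 in Smad4-KO. For Hoxd8 the other probe set read 215 and 399 in WT against 596 and 459 in Smad4-KO, a difference of 0.84 ± 0.44 beside 0.96 for the brightest. None of these passed in limma when every probe set was tested by itself (adjusted p from 0.181 upwards over the Hox probe sets).

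Probe sets disagreed for 4 genes. For Hoxa3 the next brightest, which overlapped (253 and 462 in WT, 261 and 174 in Smad4-KO), had a difference of -0.68, and the dimmest pair had -1.51 and 0.11. For Hoxc6 one further probe set read 191 and 123 in WT against 240 and 231 in Smad4-KO (0.62), and another 137 and 56.5 in WT against 44.2 and 86.6 in Smad4-KO (-0.51). The other Hoxa10 probe set stayed below 64 on all arrays, with a difference of 0.15, and the other Hoxc5 probe sets read between 4.27 and 61.6. The probe sets that represent Hoxa3 (suffix s) and Hoxc6 (suffix x) carry Affymetrix's mark for probes that match several transcripts or may cross-hybridise. So do the further probe sets of Hoxa5 (suffix x) and Hoxd8 (suffix s) that repeated the direction. A related sequence may therefore add to the signal of each of these probe sets.

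The proteins that bind DNA together with Hox factors gave no calls. TALE cofactors are homeodomain proteins of the Pbx, Meis and Pknox families. Of 8 on the array 7 were tested, 0 passed in limma in either direction (0 at an unadjusted p under 0.05), and their median was -0.41, with 6 of 7 negative. Meis2 read 1415 and 1331 in WT against 838 and 1233 in Smad4-KO (-0.43 ± 0.34, adjusted p = 0.614), and Meis3 read 135 and 191 in WT against 107 and 126 (-0.47 ± 0.33, adjusted p = 0.572). Both had their genotypes apart by less than the gap between replicates of at least 1 genotype.

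Chromatin regulators that hold Hox clusters silent (Polycomb) or active (Trithorax) likewise gave 0 calls among 24 tested in limma. Their median was -0.07, with 11 positive and 13 negative, and 1 gene had an unadjusted p under 0.05. Phc1, a Polycomb subunit, was that gene, with 498 and 545 in WT against 292 and 308 in Smad4-KO (-0.80 ± 0.29, adjusted p = 0.219). Phc3, its relative, read 2628 and 2580 in WT against 1938 and 1626 in Smad4-KO (-0.55 ± 0.30, adjusted p = 0.425), and with its probe sets averaged the difference was -2.75 (adjusted p = 0.0804). Ezh2, of the same list, went the other way (0.59 ± 0.33, adjusted p = 0.441 in limma) and is named after its value was seen. Upstream regulators of axial identity other than retinoic acid had 4 of 9 genes tested and 0 calls in limma, with 1 at an unadjusted p under 0.05. Egr2, a hindbrain regulator of Hox genes, read 101 and 140 in WT against 228 and 529 in Smad4-KO (1.55 ± 0.49, adjusted p = 0.159). Gmnn, which restrains DNA replication and Polycomb targets, read 425 and 140 in WT against 542 and 440 in Smad4-KO (1.0 ± 0.57, adjusted p = 0.453).

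Retinoic acid induces Hox genes in the embryo, and 1 of 12 tested genes of its synthesis, breakdown and receptors was called up and 0 down. Aldh1a2, the embryo's main enzyme of retinoic acid synthesis, read 58.5 and 75.8 in WT against 457 and 252 in Smad4-KO. The difference was 2.35 ± 0.40 (adjusted p = 0.0351), a call that was lost when 1 of 3 arrays was left out, with an adjusted p of 0.147 (WT replicate 1), 0.134 (WT replicate 2) or 0.0633 (Smad4-KO replicate 1). That single call is 8.33% of the list, near the 6.31% of all genes tested. The median of the 12 was -0.17, with 5 genes positive and 7 negative and 3 at an unadjusted p under 0.05. The sign turned when the 4 genes below the filter were counted: all 4 were positive, and the median over 16 was 0.31. Among them Crabp2, which carries retinoic acid to its receptors, read 3.76 and 4.37 in WT against 204 and 210 in Smad4-KO. Cyp26a1, which breaks retinoic acid down, read 1.96 and 1.79 in WT against 82.2 and 43.2 in Smad4-KO. Neither was tested, and both are named after their values were seen. Sympathetic neuron markers rose on the same arrays, from sums of 1911 and 1640 to 34069 and 24144, and their part in this result was not tested.

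Among other transcription factors of vessel segments and body regions, 5 of 34 tested were called up and 0 down, 14.7% against 6.31% of all genes tested. The median was -0.24, with 15 positive and 19 negative. At an unadjusted p under 0.05 in limma there were 14 of the 34, in both directions, where 19.3% of all genes tested lay under it. Those without a call included Tbx18 (-2.10) and Foxc1 (-1.35), and on the other side Tbx3 (1.66) and Meox1 (1.02), named after their values were seen. Hand2, a factor of the heart fields and of sympathetic neurons, read 71.0 and 89.5 in WT against 1477 and 2173 in Smad4-KO (4.49 ± 0.35, adjusted p = 0.0125). Shox2, of the sinus node and limb, read 60.5 and 40.7 in WT against 619 and 508 in Smad4-KO (3.50 ± 0.35, adjusted p = 0.0132). Its WT mean log2 signal was 5.63, under the filter of 5.64, and its Smad4-KO mean was 9.13. It was therefore tested, and counted among the 5 calls, only through the group where it was high. Eya1, a transcriptional partner of homeodomain proteins, had a difference of 3.03 ± 0.37 (adjusted p = 0.0178), and Isl1, a factor of the heart fields and of sympathetic neurons, 2.74 ± 0.45 (adjusted p = 0.0319). The remaining call, Tbx20, a T-box factor of the heart, had a difference of 2.16 and is named after its value was seen. No test set this list against the Hox genes. The neuron markers rose on the arrays where Hand2 and Isl1 did, and their part in these calls was not tested either. Calls ended without WT replicate 2 for Hand2 (adjusted p = 0.0574), Shox2 (adjusted p = 0.0668), Eya1 (adjusted p = 0.0658) and Isl1 (adjusted p = 0.119). They also ended without WT replicate 1 for Eya1 (adjusted p = 0.066), and without Smad4-KO replicate 1 (adjusted p = 0.0625) or replicate 2 (adjusted p = 0.0596) for Isl1. With probe sets averaged per gene, calls ended for Hand2 (difference 1.94, adjusted p = 0.068), Eya1 (1.73, adjusted p = 0.0832) and Isl1 (2.30, adjusted p = 0.051). Shox2 fell below the filter in that fit and was not tested. The 1 call left there in the pathway and transcription factor lists was Aldh1a2 (adjusted p = 0.0498). With no filter, or with arrays of like 3' to 5' ratio as a block, the calls of these 4 factors and of Aldh1a2 all ended (adjusted p from 0.0725 to 0.119 and from 0.0557 to 0.0713).

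Markers of several cell types passed the test on the same arrays, where 6.31% of all genes tested did. Of 9 sympathetic neuron markers 9 rose, with a median of 4.54, and their summed signal was 1911 and 1640 in WT against 34069 and 24144 in Smad4-KO. Of 10 macrophage markers 6 were called up, and all 10 had positive differences (median 2.53). Their signals summed to 15524 and 10099 in WT against 58582 and 77864 in Smad4-KO. Of 10 smooth muscle markers 5 were called down, and all 10 had negative differences (median -2.08). Of 6 Schwann cell markers 2 were called up (median 1.01, with 4 positive and 2 negative), and of 5 heart muscle markers tested 1 was called down. The called heart muscle marker, Myh6, passed the filter only through its WT signals, with a mean log2 signal of 7.58 in WT and 5.14 in Smad4-KO. Of 9 endothelial and 4 cartilage markers tested 0 passed in either direction. Of 7 adventitial fibroblast markers 0 passed in limma in either direction and 0 had an unadjusted p under 0.05 (median 0.09). Sums of 7 fat cell markers followed the replicate number: 77826 and 64678 for replicates 1, and 32024 and 31236 for replicates 2. In limma 0 of the 7 passed, and 3 had positive and 4 negative differences. The 1 with an unadjusted p under 0.05 was Ucp1, whose genotypes were apart. It read 9417 and 1170 in WT against 773 and 69.9 in Smad4-KO (-3.84 ± 1.42, adjusted p = 0.222). Cidea overlapped, at 10952 and 2233 in WT against 2854 and 280 in Smad4-KO. Skeletal muscle markers summed to 12716 on Smad4-KO replicate 2 and to between 584 and 1136 on the others. Among these lists, none of the neuron, macrophage, smooth muscle, fibroblast or fat markers stayed below 64 on all 4 arrays. Their part in the Hox differences was not tested.

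**Figure D4:**
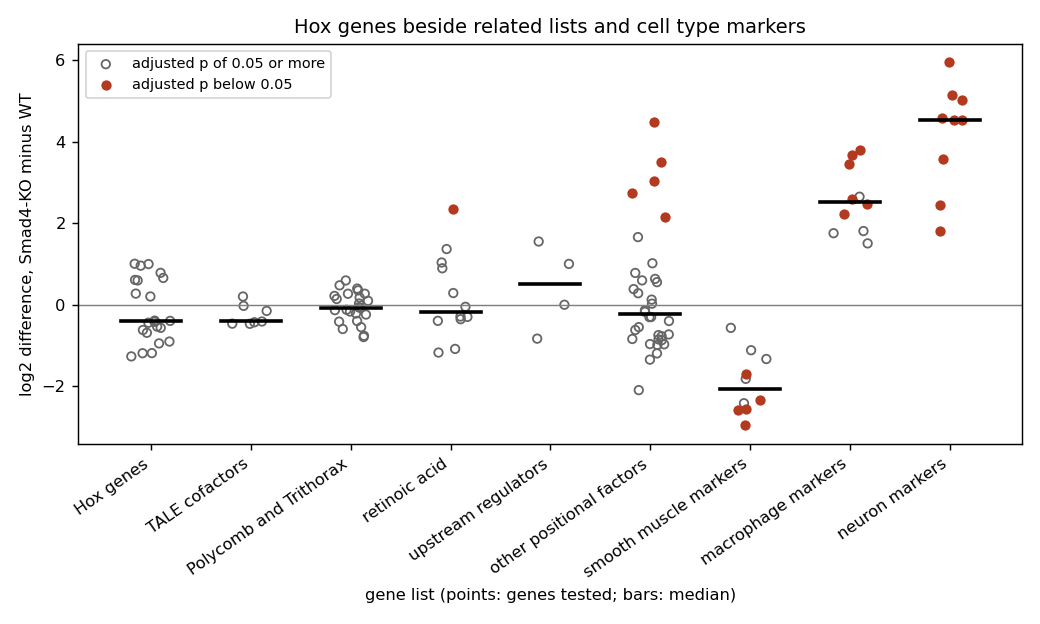
Log2 difference, Smad4-KO minus WT, of the tested genes of each list; filled red points passed an adjusted p of 0.05 in limma, open points did not, and black bars are medians. The 22 Hox genes lie between -1.27 and 1.0 with no filled point, while 5 of the other positional factors and all 9 neuron markers are filled.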

How the data were processed

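Probe set signals of 4 arrays were analysed. The authors deposited linear intensity values, and Affymetrix Expression Console and RMA are named in the submitters' processing notes. The values are not on a log scale, and the 2% trimmed mean of every array is 500, the form of the MAS5 algorithm. No detection calls or genome build were used. Probe sets were named by GEO's platform annotation; all 33 Hox genes matched RefSeq (GRCm38.p6) by gene identifier, with 0 symbols updated. Left out of the Hox genes were 3 Hox probe sets with several symbols and 5 of antisense symbols.

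Signals were taken to log2. Each gene took its brightest probe set by mean, genes below the 25th percentile (log2 signal 5.64) were left out, and 13645 genes were compared with limma 3.58.1 (R 4.3.3; lmFit, eBayes, genotype as the only term, two-sided, Benjamini-Hochberg over all genes, threshold 0.05). A second fit used 26209 probe sets (log2 signal at least 5.25). Precision is limited by the number of arrays. The procedure was tested on simulated data. Genes were named by rule: Hox genes past the threshold, the 8 largest and 4 smallest differences, the brightest of each cluster and paralog range, those whose probe sets disagree, and in each list up to 4 past the threshold or the 2 with the lowest unadjusted p; the other Hox genes are given as well. The members, lists and tests were chosen with earlier results of these data known. Replicate numbers were not taken as pairs, since no label says that they mark a shared litter, batch or day. Deviations of same-numbered arrays correlated at -0.01. That value does not decide the matter, because the labelling pair joins arrays of different number while Xist followed the number. Alternatives were other normalizations, filters, probe set rules, a signal floor of 64, eBayes with trend and robust, blocks, an adjusted p of 0.10 and leaving out each array. Normalizations, the floor, blocks and left-out arrays kept the genes and probe sets of the comparison.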

Additional observations from a re-analysis of the deposited data

Results flagged for a closer look

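Hox locus probe sets that were left out of the 33 genes, because they are paired with several symbols or an antisense symbol, also held signals higher in both Smad4-KO arrays than in both WT arrays. They lie in the Hoxd cluster. Hoxd3os1, an antisense transcript, read 415 and 378 in WT against 599 and 849 in Smad4-KO (log2 difference 0.85). A probe set shared by Hoxd4 and Hoxd3 read 28.0 and 19.5 in WT against 66.0 and 83.7 in Smad4-KO (1.67), and the other one that they share read 15.1 and 33.9 in WT against 137 and 34.8 in Smad4-KO (1.61). No test result is given here for these differences, and all WT values of the shared probe sets are below 64.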

How the results depend on the processing

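Of 22 Hox genes, 0 passed an adjusted p of 0.05 under any of the 13 alternatives, and 1, Hoxa3, passed one of 0.10. The lowest adjusted p of a Hox gene was 0.0508, for Hoxa3 with the filter at the 50th percentile. With the replicate block it was 0.102, again 0 Hox genes passed, and no call on a Hox gene changed; it moved the count of all genes from 861 to 1321. The count of all genes was 518 with the mean of probe sets and 0 to 808 with an array left out (0 without WT replicate 2). It was also 0 with no filter (2788 at an unadjusted p under 0.05) and with the labelling pair, inferred from 3' to 5' ratios, as a block (2658). Members called in the pathway and transcription factor lists (marker lists not counted), 6 in all, came to 0 in both of those, 1 with the mean of probe sets, and 0 to 5 with an array left out.

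The median of the Hox genes tested was -0.56 with median centring and lay between -0.42 and -0.23 with an array left out. That of the Hoxc genes lay between 0.31 and 0.85 with an array left out, and that of the Hoxd genes was 0.40 with no filter, which adds 5 dim genes. The sign of every cluster median was kept under all 13, although eBayes with trend and robust and both blocks cannot change a difference in this balanced design. The filters also leave a gene's own difference as it is, so many of the single-gene values could not reverse. Single genes reversed in 6 of 275 values, all with an array left out, where Hoxa2 ranged from -1.10 to 0.30 (0.20 also above 0), Hoxb3 from -0.89 to 0.11, Hoxb9 from -0.24 to 0.78, Hoxc9 from -0.059 to 1.27 and Hoxd3 from -0.24 to 1.55. The other 17 Hox genes kept their sign. The cause of these shifts was not tested.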

Other observations

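Some left-out Hox locus probe sets were lower in Smad4-KO. Hoxb5os, an antisense transcript of the Hoxb cluster, read 1044 and 640 in WT against 262 and 302 in Smad4-KO (log2 difference -1.54), beside -1.19 for Hoxb5. A probe set shared by Hoxb7 and Hoxb8 read 136 and 145 in WT against 93.5 and 131 in Smad4-KO (-0.34). A Hoxa11os probe set read 63.5 and 46.7 in WT against 29.1 and 5.05 in Smad4-KO (-2.17), and the other stayed near 1 on all arrays. The other Hoxd3os1 probe set overlapped, at 44.7 and 21.5 in WT against 10.5 and 49.5 in Smad4-KO. None was tested.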
